A study of Mus musculus with 2 samples.

Results

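CpG-poor promoter sites are GATA4 occupied segments whose midpoint lay within 1 kb of a transcription start site (TSS) of a protein-coding transcript, at promoters with little G+C or few CpG dinucleotides. A promoter was called CpG-poor where the 1 kb centred on the nearest such TSS had less than 55% G+C, or a ratio of observed to expected CpG (CpG o/e) below 0.6. There were 313 such sites among the 4409 GATA4 peaks common to both peak callers, compared with 338 at the remaining promoters, called CpG-rich, and 3758 farther than 1 kb from any protein-coding TSS. The class was set by position and sequence alone, with no measured value. GATA4 chromatin immunoprecipitation sequencing (ChIP-seq) recovers chromatin fragments bound by the factor with an antibody and sequences them. The tissue was whole liver of 2 to 3 month old mice of strain C57BL/6 x Sv129, and liver DNA that had not been immunoprecipitated served as input. The labels give no genotype, sex or treatment, and list 1 ChIP sample and 1 input sample. By the methods, each biological replicate pooled the livers of 2 mice, with a slightly older age range than that given above. Peaks were called on each replicate and on their merged reads, while the deposited lists give no value per replicate. Sites or genes were therefore the units of every test, and no value has an error between animals. Whole liver holds hepatocytes, endothelial cells, Kupffer cells, stellate cells and bile duct cells, and these peak lists alone do not assign a peak to one of them. Peaks record occupancy and not expression.

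GATA factors are zinc finger proteins that bind the sequence WGATAR, in which W is A or T and R is A or G. GATA4 takes part in the development of the heart, liver and gut, and in the adult liver it is known both in hepatocytes and in sinusoidal endothelial cells. Most vertebrate housekeeping genes start in CpG islands, whereas many genes that are used in a single tissue, such as those for plasma proteins, start at promoters poor in CpG.

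The sequences under the sites are shown first, since they carry the letters that the counts rest on. All are from the mouse reference mm9 (NCBI Build 37) and run 5′ to 3′ on the strand of the gene, with capitals marking each WGATAR or its reverse complement. The first set was chosen to show single and repeated matches outside exons. It holds site number 1 of the common list at Rhobtb1 and sites at the sterol transporter gene Abcg5, the nuclear receptor gene Nr5a2, the tubulin cofactor-like gene Tbcel, the cytochrome P450 gene Cyp2c39, the glucokinase regulator gene Gckr and the endothelial receptor gene Eltd1.
Rhobtb1, chr10:68681877-68682027, plus strand: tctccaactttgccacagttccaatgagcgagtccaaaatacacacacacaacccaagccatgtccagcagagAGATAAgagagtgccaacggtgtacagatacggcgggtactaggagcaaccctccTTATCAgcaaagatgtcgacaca
Abcg5, chr17:85082352-85082445, minus strand: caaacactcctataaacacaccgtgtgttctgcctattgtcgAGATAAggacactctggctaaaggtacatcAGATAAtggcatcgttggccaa
Nr5a2, chr1:138857111-138857261, minus strand: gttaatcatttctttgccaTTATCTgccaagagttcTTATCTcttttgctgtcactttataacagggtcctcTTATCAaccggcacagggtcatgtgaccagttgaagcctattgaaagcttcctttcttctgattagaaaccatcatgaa
Tbcel, chr9:42269877-42270027, minus strand: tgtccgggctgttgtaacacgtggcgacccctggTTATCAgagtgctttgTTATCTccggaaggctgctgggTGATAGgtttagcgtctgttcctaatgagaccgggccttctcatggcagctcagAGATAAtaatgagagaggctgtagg
Cyp2c39, chr19:39585155-39585291, plus strand: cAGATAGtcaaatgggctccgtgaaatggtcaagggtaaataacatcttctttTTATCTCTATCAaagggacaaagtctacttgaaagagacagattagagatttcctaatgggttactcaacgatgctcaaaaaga
Gckr, chr5:31599884-31599953, plus strand: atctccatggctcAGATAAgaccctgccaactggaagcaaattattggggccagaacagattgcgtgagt
Eltd1, chr3:151101393-151101537, plus strand: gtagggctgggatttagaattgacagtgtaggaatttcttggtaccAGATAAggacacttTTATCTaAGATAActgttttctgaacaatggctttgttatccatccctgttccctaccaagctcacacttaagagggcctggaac

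At some sites the WGATAR nearest the midpoint lay in the transcribed 5′ untranslated region (5′ UTR), and only that match with its flanks is given. Lyl1 encodes a basic helix-loop-helix factor of blood and vessel cells, Tek the angiopoietin receptor, and Icam2 an adhesion molecule of endothelium.
Lyl1, chr8:87225559-87225588, plus strand: gcagccagacccTTATCTgcacaggcccag
Tek, chr4:94406004-94406033, plus strand: agcaggagcagaAGATAAgccttggatgaa
Icam2, chr11:106244042-106244071, minus strand: ttacacccctgcTTATCTgctgcttcctgg

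The last set shows sites that held no WGATAR. The stretches at Ints2, for a subunit of the Integrator complex, and at Stab1, for a scavenger receptor of sinusoidal endothelium, hold only GATA cores, and the stretch at Vps33b, for a vesicle sorting protein, holds none.
Ints2, chr11:86071078-86071161, minus strand: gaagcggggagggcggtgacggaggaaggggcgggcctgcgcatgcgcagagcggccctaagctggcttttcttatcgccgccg
Stab1, chr14:31981828-31981939, minus strand: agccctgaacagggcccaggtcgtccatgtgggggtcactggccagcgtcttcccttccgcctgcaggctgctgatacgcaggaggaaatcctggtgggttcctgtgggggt
Vps33b, chr7:87414430-87414534, plus strand: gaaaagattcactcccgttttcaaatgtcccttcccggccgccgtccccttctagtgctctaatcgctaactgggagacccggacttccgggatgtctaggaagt

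The 4 letters GATA, without regard to their flanks, occurred in 293 of the 313 CpG-poor promoter sites (93.6%, Wilson 95% interval 90.3 to 95.8), and the full WGATAR in 251 (80.2%, 75.4 to 84.2). Over all 4409 common sites, 82.9% held a WGATAR. At the 338 CpG-rich promoter sites the share was 64.8% (59.6 to 69.7). The difference of 15.4 percentage points (Newcombe 95% interval 8.56 to 22.0) passed a two-sided Fisher's exact test with Benjamini-Hochberg adjustment over 9 comparisons (adjusted p = 5.21e-05). Most letters of WGATAR are A or T, so the rule that made the classes bears on this gap. The test cannot separate the gap from that rule. Against the sites beyond 1 kb, of which 84.8% held a WGATAR, CpG-poor promoter sites differed by -4.56 points, which did not pass the adjustment (-9.46 to -0.353, adjusted p = 0.0791, Fisher's exact test). Of 15 alternatives, including looser GATA letters, it passed under 6 and changed sign, to 1.91 points, where both criteria were required.

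Base composition sets how often these letters occur without any peak, and the rule that made both classes used base composition. Windows of the same width and offset were therefore read at protein-coding TSS without a common peak. Of 27708 unoccupied CpG-poor TSS, 27.3% held a WGATAR in such windows, compared with 11.4% of 17020 unoccupied CpG-rich TSS. The occupied share was thus 2.94 times the unoccupied share at CpG-poor promoters, and 5.69 times at CpG-rich promoters. A higher unoccupied share limits how large such a ratio can be, so these ratios are not directly comparable between the classes. The unoccupied TSS had a median G+C of 49.7% in the CpG-poor class and 63.1% in the CpG-rich class. The part of base composition in the difference between the classes was not tested beyond these windows.

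A single WGATAR was the usual state. Of the 313 sites, 62 held none, 165 held 1, 64 held 2, 16 held 3 and 6 held at least 4. At least 2 matches were present in 27.5% (22.8 to 32.7), compared with 11.5% (8.56 to 15.4) of CpG-rich promoter sites and 37.4% (35.8 to 38.9) of sites beyond 1 kb. The 6 sites with at least 4 matches lay at Cyp17a1, for a steroid hydroxylase, Tbcel, 1600002H07Rik, Psen2, for a catalytic subunit of the γ-secretase, Akr1c14, for a hydroxysteroid dehydrogenase of the aldo-keto reductase family, and Cox7a1, for a subunit of cytochrome c oxidase. These were spread over the list, from number 151 at Cyp17a1 to number 4372 at Cox7a1. Among the 365 matches in all, AGATAA was the commonest form with 165 (45.2%), followed by TGATAA with 98 (26.8%), AGATAG with 62 and TGATAG with 40. On the sense strand of the gene were 176 matches (48.2%, 43.1 to 53.3), an interval that includes an even split. Matches gathered at the peak centre in the profile of WGATAR around the midpoint.

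**Figure D1:**
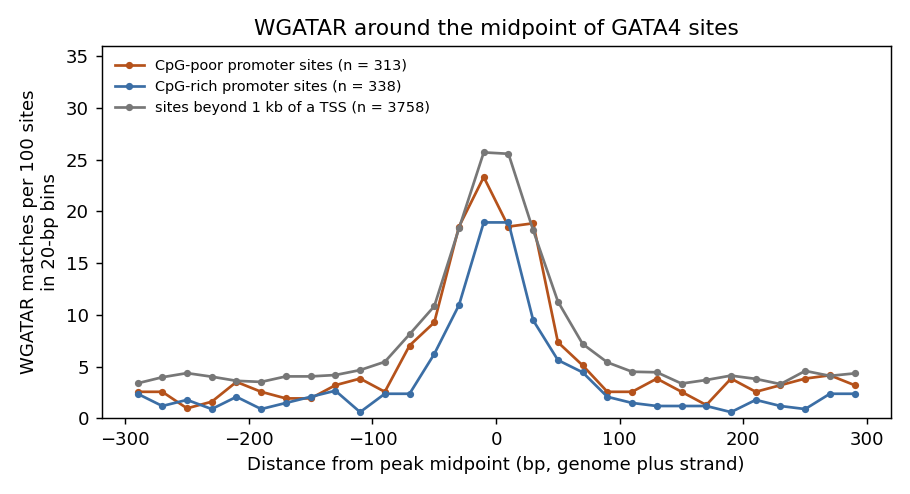
WGATAR matches per 100 sites in 20-bp bins (y axis) by distance from the peak midpoint in bp on the genome plus strand (x axis), for the 313 CpG-poor promoter sites, the 338 CpG-rich promoter sites and the 3758 sites beyond 1 kb of a TSS. In all 3 classes the curve is highest next to the midpoint, at 23.3 matches per 100 CpG-poor promoter sites and 18.9 per 100 CpG-rich promoter sites in the 20 bp to its left.

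No GATA core at all was found at 20 CpG-poor promoter sites, and a further 42 held a core but no WGATAR. The share with a core, 93.6%, was near the 93.4% of all common sites, and 84.3% of CpG-rich promoter sites held one. The first of those without a core were at Aqp9, for the aquaglyceroporin of hepatocytes (number 762), Alkbh3, for a DNA demethylase (number 960), and Gm17505 (number 1205). Others among the first 15 included Clip1, Vps33b, Ilvbl, Acy1, for an aminoacylase, Ddx56, Mtf2, Mrpl39, Otud6b, Clcn3, Hmha1, Tnfrsf9 and Atp6v1g2. The median list number followed no steady order in the number of matches, at 2840.5 for sites without a WGATAR, 2570 with 1, 2247 with 2, 2873 with 3 and 1698.5 with at least 4. Only 16 sites held 3 matches and 6 held at least 4. Over all 4409 common sites the median fell steadily, from 2707.5 without a WGATAR to 2229.5, 1972, 1506 and 821. What the absence of these letters means for binding of GATA4 at a site was not tested.

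The sites gathered just upstream of the start. The midpoint was upstream of the TSS at 205 of 313 sites (65.5%, 60.1 to 70.5), and the median signed distance was -46 bp on the transcript strand. The 100 bp before the TSS alone held 89 midpoints (28.4%), more than any other 100-bp bin. Within 250 bp of the TSS lay 204 sites (65.2%), within 100 bp 128 (40.9%), and at 127 (40.6%) the TSS itself was inside the peak. By annotation, 53 midpoints downstream of the start fell in the 5′ UTR, 47 in the first intron, 5 in a coding exon and 2 in a later intron, and 1 lay beyond the end of a short transcript. The matches themselves followed the sites, with 233 of 365 (63.8%) upstream, a median of -65 bp, and 80 in the last 100 bp before the start.

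**Figure D2:**
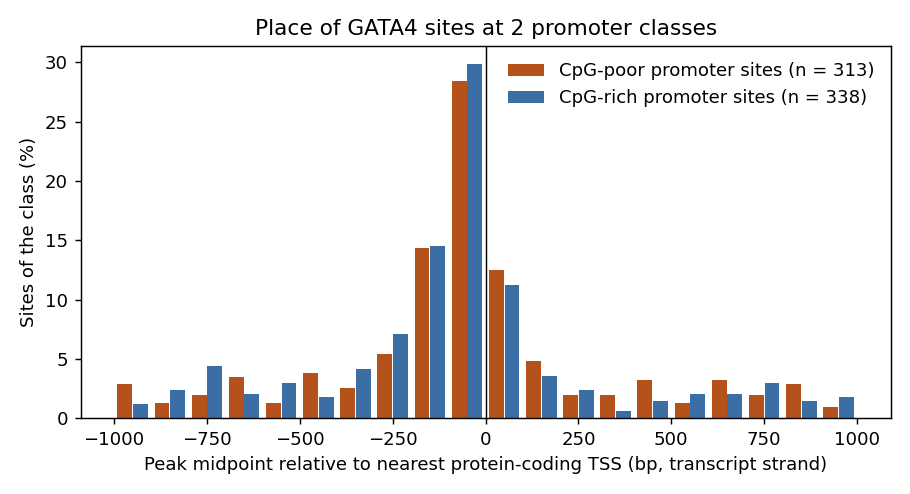
Share of sites in percent (y axis) in 100-bp bins of the distance from the peak midpoint to the nearest protein-coding TSS, in bp on the transcript strand (x axis), for 313 CpG-poor and 338 CpG-rich promoter sites. In both classes the bin just upstream of the TSS is the highest, with 28.4% of CpG-poor promoter sites.

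CpG-rich promoter sites had 70.4% of their midpoints upstream and 62.1% within 250 bp. Neither share passed the test between the classes (difference -4.92 points, -12.0 to 2.24, adjusted p = 0.31, and 3.05 points, -4.34 to 10.4, adjusted p = 0.521, Fisher's exact test with adjustment). The TATA box letters TATAAA in the window from -40 to -15 bp were found at 7 of 307 occupied CpG-poor TSS (2.28%), beside 2.17% of the unoccupied ones. A divergent TSS within 1 kb was present at 4.89% of the occupied and 3.90% of the unoccupied CpG-poor TSS.

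Every common peak carries the same score of 1000, so its height is not in the files. The number of a peak in the list was read instead. What set this order is not stated in the files, and by the methods SPP peaks were sorted by signal value for the comparison of replicates. The first CpG-poor promoter site was number 1, at Rhobtb1, 164 bp upstream of the TSS. It was followed by sites at Pzp (number 10, -629 bp), a plasma protease inhibitor of the α-macroglobulin family, and Sulf1 (number 18, 71 bp downstream), a heparan sulfate sulfatase. Next were Lyl1 (number 40), Oit3 (number 46), a marker of liver sinusoidal endothelium, and Hhex (number 54, -951 bp), a homeobox factor needed for liver formation. The site at Abcg5 (number 87) lay 17 bp before the start with 3 WGATAR. The rest of the first 15 were at Ints2 (number 100), the liver peptide gene Leap2 (number 102), the chromatin remodelling gene Arid1a (number 112), the cholesterol acyltransferase gene Soat2 (number 118), Cyp17a1 (number 151), Tek (number 164), the mitochondrial ribosomal gene Mrps17 (number 186) and the potassium channel gene Kcnk6 (number 215). Of these 15, only Ints2 held no WGATAR.

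In the list as a whole, more CpG-poor promoter sites had late than early numbers. The first 1103 numbers of the list held 66 of them (21.1%, 16.9 to 25.9), and the last 1102 held 98 (31.3%, 26.4 to 36.6). CpG-rich promoter sites did likewise, with 29.3% (24.7 to 34.4) in the last 1102, where sites beyond 1 kb had 24.1%. The share in the first 1103 did not pass Fisher's exact test against the 21.6% of CpG-rich promoter sites (difference -0.511 points, -6.78 to 5.81, adjusted p = 0.924) or against the 25.7% of sites beyond 1 kb (-4.57 points, -8.96 to 0.480, adjusted p = 0.141). In the MACS2 list, 103 of the 313 (32.9%, 27.9 to 38.3) lay within the first 1467 numbers, beside 33.8% of all common sites, and 59 of the 66 were among these 103. The widths ran from 80 to 389 bp with a median of 203 bp, and 102 sites (32.6%, 27.6 to 38.0) were 320 bp wide, compared with 20.7% (16.7 to 25.3) of CpG-rich promoter sites.

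**Figure D3:**
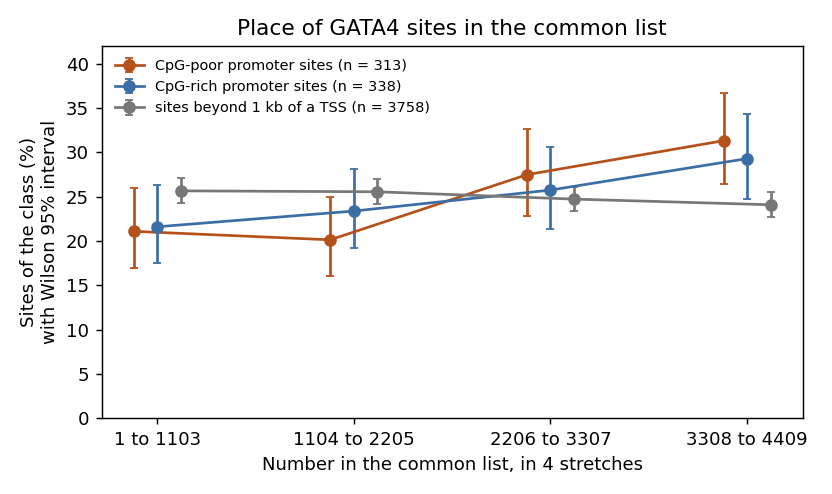
Share of each class of sites in percent with Wilson 95% intervals (y axis) in 4 successive stretches of 1102 or 1103 numbers of the common list (x axis), for 313 CpG-poor promoter sites, 338 CpG-rich promoter sites and 3758 sites beyond 1 kb. The CpG-poor class goes from 21.1% in the first stretch to 31.3% in the last, and the CpG-rich class from 21.6% to 29.3%.

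Few genes with a CpG-poor promoter were occupied. Of 16183 protein-coding genes with at least 1 CpG-poor TSS, 302 held a CpG-poor promoter site (1.87%). Among the 12754 genes whose TSS were all CpG-poor, 253 had a common peak within 1 kb of a TSS (1.98%, 1.76 to 2.24). The share was 4.40% (3.92 to 4.95) among the 6108 genes with only CpG-rich TSS. This difference of -2.42 points (-3.01 to -1.87) passed the test (adjusted p = 5.53e-19, Fisher's exact test over genes). Genes with both kinds of TSS were occupied in 175 of 3516 cases (4.98%). None of 1451 olfactory, vomeronasal and trace amine-associated receptor genes with a CpG-poor TSS was occupied there. Without such receptor genes, 2.05% of 14728 genes with at least 1 CpG-poor TSS held a CpG-poor promoter site. Among the 11299 genes then left whose TSS were all CpG-poor, 2.24% were occupied.

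The share of genes with such a site ran from 0 to 32.1% over the gene groups. The lists were written with earlier results of these data known, so their counts are a description and were not tested. Sites were counted for the gene of the nearest TSS alone. Endothelial genes had the highest share, with 18 of the 56 listed genes that have a CpG-poor TSS (32.1%, 21.4 to 45.2) beside the 1.87% over all such genes. No list gene of Kupffer cells and leucocytes (0 of 50), stellate cells and matrix (0 of 33), bile duct cells (0 of 22) or erythroid cells (0 of 22) held one, with upper Wilson bounds of 7.13%, 10.4%, 14.9% and 14.9%. The shares of hepatocyte function lists lay lower than the endothelial share. They were 6 of 66 plasma protein genes (9.09%, 4.23 to 18.5), 5 of 74 cytochrome P450 genes (6.76%) and 4 of 45 genes of fatty acid and triglyceride metabolism (8.89%). Glucose and glycogen metabolism had 3 of 30 (10%, 3.46 to 25.6) and transcription factors of liver 4 of 38 (10.5%, 4.17 to 24.1). The intervals of glucose and glycogen metabolism and of the transcription factors overlap the endothelial interval. Lower shares were found for genes of bile acid and cholesterol handling (2 of 30, 6.67%), complement and coagulation (2 of 48, 4.17%), conjugating enzymes (2 of 65, 3.08%), organic ion transporters (1 of 49, 2.04%) and amino acid and urea metabolism (1 of 52, 1.92%), the last pair near the 1.87% of all genes. The intervals for bile acid and cholesterol handling (1.85 to 21.3), complement and coagulation (1.15 to 14.0) and conjugating enzymes (0.848 to 10.5) also included 1.87%. No site was present at 23 apolipoprotein and lipoprotein genes. Across all 17 lists, 47 of the 302 genes were named in any.

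**Figure D4:**
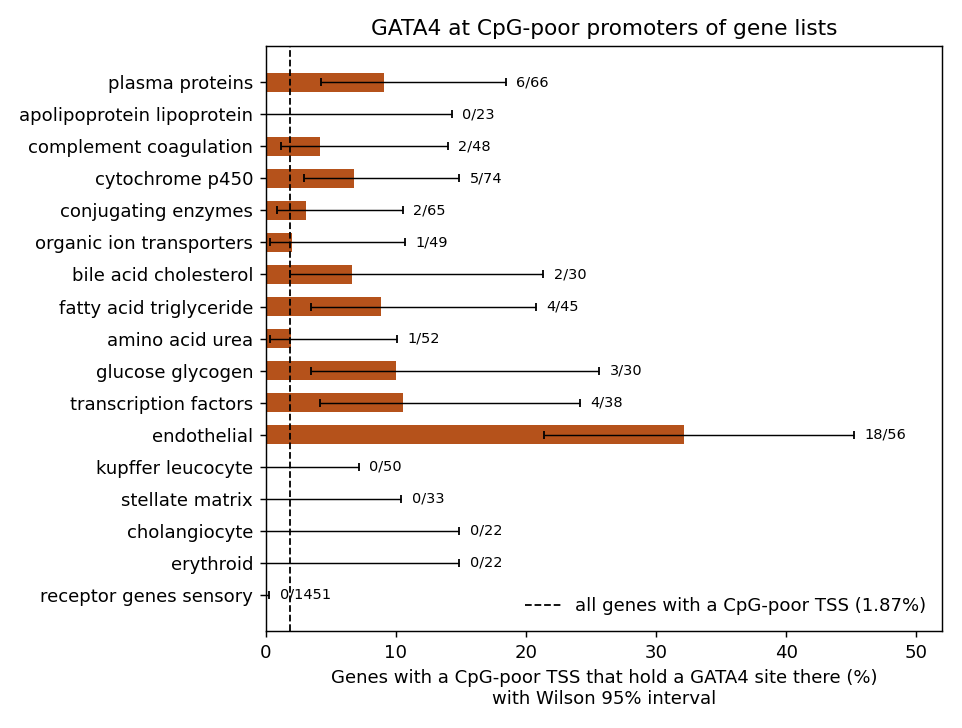
Share of the genes of each list with a CpG-poor TSS that hold a GATA4 site there, in percent with Wilson 95% intervals (x axis), by list (y axis), with the number of genes beside each bar and a dashed line at the 1.87% of all genes. The endothelial list is at 18 of 56, and 6 of the 17 lists are at 0.

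Of the endothelial sites, 13 of 18 (72.2%, 49.1 to 87.5) lay within 250 bp of the start, beside 64.7% of the other 295. Their numbers ran through most of the list, from number 46 at Oit3 to number 4397 at Nos3, the endothelial nitric oxide synthase gene. The site at Tek (number 164) lay 72 bp into the transcript, and that at Icam2 (number 648) 81 bp into it with 2 WGATAR. Stab1 (number 429, -48 bp) and Esam (number 806, 114 bp downstream), an endothelial adhesion gene, held GATA cores but no WGATAR. At Edn1, the gene of the vessel constricting peptide endothelin, the site was number 1890 and lay at -482 bp. Ptprb (number 2497, -43 bp), a phosphatase that acts on the Tek receptor, held 1 WGATAR and Eltd1 (number 2692, 614 bp into the first intron) held 3. The other 10, named after their values were seen, were Cd93, Egfl7, Sdpr, Ushbp1, Ramp2, Erg, Clec1b, Plvap, Sox17 and Nos3. Among them, Erg and Sox17 encode transcription factors of endothelium, Plvap a protein of endothelial diaphragms, and Clec1b a receptor that platelets also carry. All 18 sites held a GATA core, 14 (77.8%, 54.8 to 91.0) a WGATAR and 7 the ETS letters CCGGAAG or CAGGAAG, and none held the SP1 and KLF letters GGGCGG. Among the other 295 sites, 237 (80.3%) held a WGATAR, 81 (27.5%) the ETS letters and 66 (22.4%) GGGCGG. These shares of the 18 sites overlap those of the 295 by their intervals for WGATAR and ETS.

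Secreted proteins of hepatocytes were held mainly at low list positions after Pzp. The sites at Itih4 (number 2677, -78 bp), for an inter-α-trypsin inhibitor chain, Trf (number 2790, -107 bp), for transferrin, Serpina6 (number 3194, -182 bp), for the corticosteroid-binding globulin, Ttr (number 3434, -18 bp), for transthyretin, and Ahsg (number 4079, -165 bp), for fetuin, were all upstream. All of these but Ttr held a WGATAR, and Ttr held 2 GATA cores. Of 48 complement and coagulation genes, Masp1, for a protease of the lectin pathway (number 2140, -70 bp), and F10, for coagulation factor X (number 2570, -729 bp), held 1 site each.

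Among enzymes of small molecules, Cyp2c39 (number 1237, -118 bp) and Cyp3a13 (number 3053, -239 bp) each held 3 WGATAR, and Cyp2a12 (number 3901, -102 bp) held 2. Cyp2d22 (number 1366) and Cyp4x1 (number 2712) had their sites in the first intron with 1 WGATAR each. Of 65 conjugating enzyme genes, 2 had sites, Ugt2b36 (number 2270, -49 bp), for a glucuronosyltransferase, and Inmt (number 3595, -655 bp), for a methyltransferase of indolamines. In lipid handling, Hsd17b13, for a lipid droplet enzyme (number 277, -140 bp), Gpam, for the acyltransferase that begins glycerolipid synthesis (number 468, 29 bp downstream), Cpt2, for the inner carnitine palmitoyltransferase (number 2139, -5 bp), and Fabp2, for a fatty acid binding protein (number 3064, 239 bp downstream), had sites. Cpt2 alone of these 4 held no WGATAR. By nearest TSS, Abcg5 was the only site among 49 transporter genes. Together with Soat2 it made up the sites so counted at the 30 genes of bile acid and cholesterol handling. The paper lists the occupied site at Abcg5 under the neighbouring gene Abcg8 as well, which the nearest TSS leaves out. Bhmt, for the betaine methyltransferase (number 2985), was the only one of 52 genes of amino acid and urea metabolism.

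Glucose metabolism was represented by Gckr (number 2076, -5 bp), whose product holds glucokinase in the nucleus, and by Ppp1r3b (number 2371) and Ppp1r3c (number 3206, -67 bp), for subunits that direct protein phosphatase to glycogen. Each held 1 WGATAR. Of the transcription factor list, Nr5a2, for a nuclear receptor of bile acid control, had sites number 379 and 4260 whose overlapping peaks had midpoints 217 bp apart upstream of the same start, with 3 and 1 WGATAR. Nr0b2, for the corepressor SHP (number 1690, -492 bp), held only a core. Tef, for a circadian PAR bZIP factor (number 3290), held 1 WGATAR in its 5′ UTR.

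At 10 genes more than 1 CpG-poor promoter site was present. Rhobtb1 had 3, numbers 1, 937 and 2696, of which the last lay at another start of the gene 67487 bp from the nearest other site. Soat2 had numbers 118 and 2267, with midpoints at -767 and -49 bp. Nfe2l2, for the NRF2 factor of the response to oxidants, had numbers 1667 and 3184, upstream and downstream of 1 start. The others were Rcbtb2, Nr5a2, Mgst1, for a microsomal glutathione transferase, Dab2, for an endocytic adaptor, Ttc32, Ablim1, for an actin-binding protein, and Myo18a. Another common site within 10 kb, at any gene or none, was present for 58 of 313 sites (18.5%, 14.6 to 23.2), compared with 36 of 338 CpG-rich promoter sites (10.7%, 7.79 to 14.4). The difference of 7.88 points (2.46 to 13.4) passed the test (adjusted p = 0.0154, Fisher's exact test), but did not when neighbours were counted within 50 kb (3.51 points, adjusted p = 0.491) or with 1 start per gene (4.19 points, adjusted p = 0.226). The difference from the 20.7% of sites beyond 1 kb did not pass Fisher's exact test (-2.20 points, -6.33 to 2.65, adjusted p = 0.492). The densest group was at Rdh1, for a retinol dehydrogenase, with 6 common sites within 10 kb, itself included, numbered between 17 and 4210. Kcnk6 had 4 and Leap2, Uqcrq, Myo18a and the gene of the growth factor Bmp10 had 3 each, where Leap2 and Uqcrq share theirs.

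Letters of other factors were counted as descriptions of the DNA, with 15 motifs searched as exact matches on both strands of the whole peak. Besides WGATAR and GATA, which overlap each other, the FOXA letters TGTTTAC or TGTTTGC were more frequent at CpG-poor than at CpG-rich promoter sites (33 sites, 10.5%, compared with 4.73%, difference 5.81 points, 1.74 to 10.1, adjusted p = 0.026 over the 15 motifs, Fisher's exact test). In the same windows at unoccupied TSS, 6.56% of the CpG-poor and 3.52% of the CpG-rich class held them. The rule that made the classes bears on the gaps for WGATAR, GATA and FOXA, and the test cannot separate them from it. The call for FOXA was lost when 200 bp were scanned in place of the whole peak (4.53 points, adjusted p = 0.111, Fisher's exact test). GGGCGG, for SP1 and KLF factors, was at 66 CpG-poor promoter sites (21.1%) and at 48.2% of CpG-rich promoter sites. These letters are all G or C with a CpG among them, so the rule that made the classes bears on this gap, which is given as a description. In the same windows at unoccupied TSS the shares were 13.7% and 47.6%. The E-box letters CTG lying 7 to 9 bases before a GATA core, the arrangement of GATA and SCL complexes in blood cells, was at 50 sites (16.0%) compared with 10.4% of CpG-rich promoter sites, which did not pass the adjustment (5.62 points, 0.423 to 10.9, adjusted p = 0.109, Fisher's exact test). It was in 5.93% of unoccupied CpG-poor windows. Such composites contain the GATA core, so their frequency is tied to it. The ETS letters were at 88 sites (28.1%) compared with 23.4% (adjusted p = 0.283, Fisher's exact test), beside 12.7% of the unoccupied CpG-poor windows. Letters for HNF4A (CAAAGTCCA), the core element of nuclear receptors (AGGTCA), HNF1 (GTTAAT), C/EBP (TTGCNNAA), NFI (TTGGCA), AP-1 (TGANTCA), NF-Y (CCAAT), CREB (TGACGT) and the TATA box (TATAAA) did not pass the adjusted test between the classes, with shares between 1.28% for HNF4A and 28.8% for NF-Y at CpG-poor promoter sites.

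**Figure D5:**
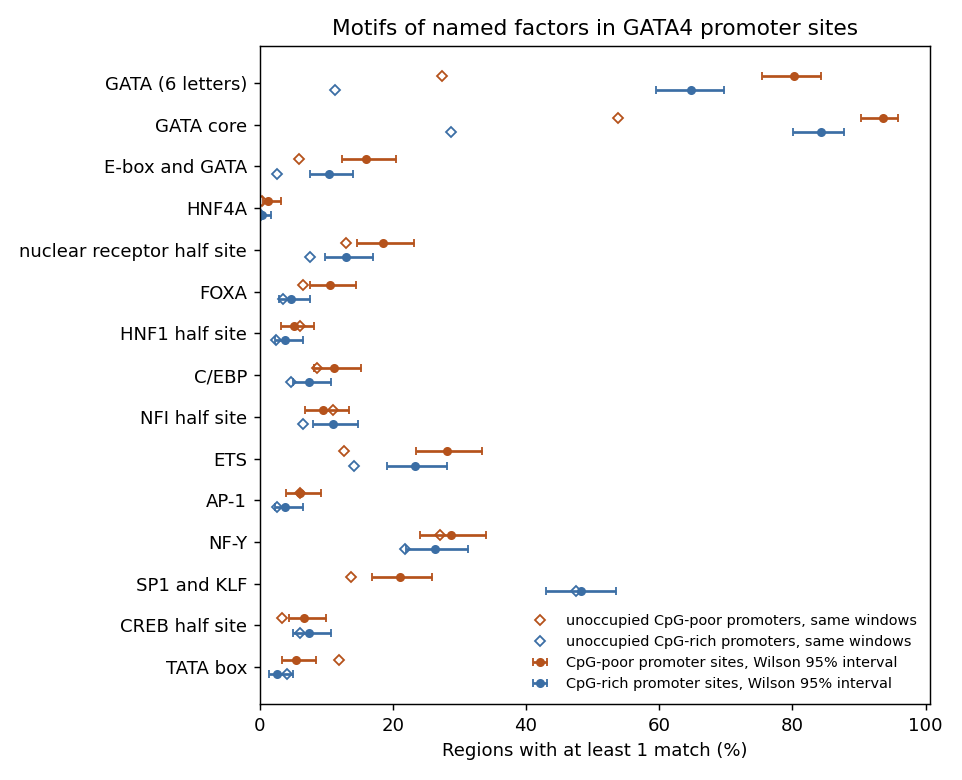
Share of regions with at least 1 match in percent (x axis) for the 15 motifs (y axis), with Wilson 95% intervals for 313 CpG-poor and 338 CpG-rich promoter sites and diamonds for windows of the same width and offset at unoccupied promoters. WGATAR is at 80.2% and 64.8%, and GGGCGG (SP1 and KLF) at 21.1% and 48.2%.

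Sites can be split by which of the 2 criteria of the rule their promoter met. Both were met at 165 sites (52.7%), low G+C alone at 76 and low CpG o/e alone at 72. Promoters with low G+C alone made up 24.3% of the sites but 10.6% of all CpG-poor TSS. Their sites were nearest to the start, with a median distance of 70.5 bp and 47 of 76 within 100 bp (61.8%, 50.6 to 71.9), compared with 33.3% (26.6 to 40.8) where both criteria were met. A WGATAR was present at 86.7% (80.6 to 91.0), 71.1% (60.0 to 80.0) and 75% (63.9 to 83.6) of the sites, in the order in which the criteria are given. Of the endothelial sites, 12 were among the 165, 1 among the 76 and 5 among the 72. These differences within the class were not tested, since the criteria are part of the rule.

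The limits of the rule cut through similar sites. At the 1 kb limit, A530016L24Rik (989 bp) was inside, and Hsd17b2 (1003 bp) and Ino80c (1019 bp) outside. Tnfrsf9 (54.8% G+C) and Gpr108 (54.9%) were the last inside by G+C alone, and Rsrc2 and Zfp369, both at 55%, the first outside. By CpG o/e, Abhd8 (0.595) and Parvb (0.597) were inside, and Sord (0.601) and Spnb2 (0.602) outside. Peaks that only a single caller found were left out of the 313. The SPP list had 338 CpG-poor promoter sites, 25 of them without a common peak and 21 of these 25 with a WGATAR (84%, 65.3 to 93.6). The MACS2 list had 431, 117 without a common peak, of which 96 held a WGATAR (82.1%, 74.1 to 88.0) in wider peaks of 692 bp at the median.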

How the data were processed

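GATA4 ChIP-seq and input reads from whole mouse liver were aligned by the authors to mm9 with Bowtie 0.12.7 and only uniquely placed reads were used. Peaks were called with SPP and with MACS2 2.0.10 for the replicates separately and for both merged, with pooled input as background, thresholds were set by the reproducibility of ranks between replicates (IDR), and both lists were intersected with bedtools 2.16.1 (versions from the submitters' processing notes). The deposited score of every peak in all 3 lists is 1000 and was not used. As the score is uniform, list order took its place, as had been laid down for that case. Read depth is not in the files, so no depth can be set against a peak, and intervals cover the count of sites only.

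Coordinates were turned to 1-based. The reference was NCBI Build 37 with GENCODE M1 on the same build, giving 45982 distinct TSS of 51733 protein-coding transcripts, 61.5% of them CpG-poor. Each peak took the nearest TSS to its midpoint. Shares carry Wilson and differences Newcombe 95% intervals. The tests were two-sided Fisher's exact tests with Benjamini-Hochberg adjustment and a threshold of 0.05. Sites near each other or at 1 gene are not independent, and p-values describe these sites, not animals. Peak lists from SPP and MACS2 used an overlap of at least 1 bp.

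The sites, gene lists and motifs were chosen with earlier results of these data known. Named genes were those of the first 15 sites, sites with at least 4 WGATAR, up to 8 a list by list order, 2 sites on either side of each limit, genes with several sites and the first 15 sites without a GATA core. A site at the 1 kb limit is not reported here. The alternatives were other distances, class rules, windows, TSS sets, peak lists, scanned widths, looser GATA letters and neighbour distances. Functions were tested on simulated data with planted motifs and known distances. The tools were pandas 2.3.3 and numpy 2.4.6 for tables, scipy 1.17.1 for tests, pysam 0.24.0 and samtools 1.23.1 for sequence and matplotlib 3.10.9 for plots, under Python 3.11.15. Promoter tables of another build were not used here. The input sample has no peak list analysed here.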

Additional observations from a re-analysis of the deposited data

How the results depend on the processing

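The higher WGATAR share of CpG-poor than of CpG-rich promoter sites kept its direction and passed in 15 of 15 alternatives (9.29 to 19.4 points), and the lower share of occupied genes in 11 of 11 (-4.32 to -1.52 points). All of these alternatives class promoters by base composition, so they cannot separate the WGATAR gap from the class rule. The count of 18 endothelial genes ran from 12 to 20 over 10 alternatives added after the data were seen. The number of list genes with a CpG-poor TSS changed too. As a share of these, the count ran from 23.6% to 35.7%, beside 1.26% to 2.58% of all such genes. The number of sites was 165 when both criteria were required and 473 when 2 kb set the class. The remaining differences below are in percentage points, and where they changed the cause was not tested.

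For another common site within 10 kb, the difference from CpG-rich promoter sites no longer passed with a reach of 500 bp (5.77), a reach of 2 kb (6.23), the longest transcript per gene (4.19) or neighbours within 50 kb (3.51). The same measure against sites beyond 1 kb, which did not pass, turned to 1.70 with both criteria, 0.699 with 500 bp setting the class, 0.743 in the MACS2 list and 2.98 with 1 site per gene.

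The lower WGATAR share against sites beyond 1 kb passed with a reach of 500 bp (-7.48), a 2 kb class window (-9.91), the MACS2 list (-5.62), 1 site per gene (-6.10), the central 100 bp (-6.96) and 500 bp scanned (-7.46), and turned to 1.91 with both criteria.

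Position and list order, none of which passed, changed direction in places. The upstream share turned to 1.40 with both criteria and 4.76 in the MACS2 list. The share within 250 bp turned to -2.28 (reach 2 kb), -4.00 (both criteria), -6.45 (CpG o/e alone), -7.29 (500 bp class window), -3.69 (all transcripts) and -4.25 (MACS2 list), and to -0.230 within 100 bp. The share in the first 1103 numbers against CpG-rich promoter sites turned to 7.12 (both criteria), 0.926 (CpG o/e alone), 0.773 and 2.32 (500 bp and 2 kb class windows), 0.219 (all transcripts) and 1.73 (MACS2 list). Against sites beyond 1 kb it turned to 1.01 with both criteria, and with 1 site per gene, a setting that keeps the first-numbered site of each gene, it passed (-10.7). The number of motifs passing was 3 with 200 bp scanned, where FOXA no longer passed, and 4 in the SPP list. No paired analysis was possible because there was 1 ChIP sample, and for the same reason no replicate could be left out.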

Other observations

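Some further genes with CpG-poor promoter sites share a role that no list covered. These groups were put together after the sites had been seen, so their counts are given with no test. Of 18 platelet genes with a CpG-poor TSS, 4 held such a site (22.2%, Wilson 95% interval 9.001 to 45.2), namely Pf4, for platelet factor, Nfe2, for a transcription factor of platelet formation, Gp1ba, for a chain of the von Willebrand factor receptor, and Clec1b, which is also on the endothelial list. The site at Pf4 was number 2386 and lay 64 bp into the transcript with 2 WGATAR, that at Nfe2 was number 3073 at -106 bp with 1, and that at Gp1ba was number 3742 at -35 bp with 2. The list of erythroid genes had none of 22.

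Of 43 genes for dehydrogenases and reductases of steroids and retinol, 8 held a CpG-poor promoter site (18.6%, 9.74 to 32.6). They were Hsd17b13, Hsd17b4, Hsd11b1, for the enzyme that regenerates active glucocorticoid, Rdh7, Hsd17b11, Akr1c14, Dhrs3 and Rdh1. Of these, Dhrs3 (number 4106, -14 bp) held no GATA core and the other 7 held at least 1 WGATAR. Among 75 genes of the mitochondrial ribosome and respiratory chain with a CpG-poor TSS, 10 held a site (13.3%, 7.41 to 22.8). Mrps17, Cox16, Ndufa9 and Uqcrq were among them. These named genes met the rule by low G+C alone, with CpG o/e of 0.653, 0.774, 0.683 and 0.895 in that order. Among 259 zinc finger genes named Zfp, 7 held a site (2.70%, 1.32 to 5.47), beside 1.87% of all genes.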
